A study of Caenorhabditis elegans with 4 samples.

Results

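The 367 regions described here are places in the genome of the nematode Caenorhabditis elegans where CFP-1 was called in both chromatin extracts but the histone mark H3K4me3 in no reproducible way. They were chosen from 7577 CFP-1 regions, of which they make up 4.84% (exact binomial 95% interval 4.37 to 5.35%, which covers counting error only). A CFP-1 region is an interval of merged peaks that holds a peak of both CFP-1 lists, and an H3K4me3 region is the same for the mark. A member overlaps an H3K4me3 peak of at least 1 list by 1 bp or more, but no H3K4me3 region. Presence of the calls in all 4 lists therefore chose the members, and the scores and numbers of those calls are given as a description, without a test.

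The peak lists came from whole late embryos, aged for 3.5 hours after collection, of strain JA1597. In all samples a transgene at a Mos1 site on chromosome IV expressed CFP-1 fused to GFP under the dpy-30 promoter. Samples RC03 and RC04 of CFP-1::GFP were precipitated with anti-GFP serum, and those of the same numbers for the mark with an anti-H3K4me3 antibody, so that each antibody has 2 lists. Anti-GFP signal from embryos lacking GFP was not analysed here. RC03 and RC04 are called extracts here, although the labels do not say that samples of the same number came from the same chromatin. Whether RC03 and RC04 were separate cultures is not stated, and their spread may be technical.

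CFP-1 is the worm counterpart of a CXXC zinc finger protein that binds CpG-rich DNA in mammals. It is a subunit of the COMPASS complex, whose catalytic subunit SET-2 methylates lysine 4 of histone H3. The trimethylated form of this lysine typically marks promoters of transcribed genes, and COMPASS with CFP-1 accounts for most of it in the worm embryo. Worm autosomes have gene-dense centres and repeat-rich arms, and all chromosomes end in telomeric repeats.

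The calls that make up the members were split almost evenly between the extracts. The H3K4me3 call was in RC03 alone at 161 members (43.9%, interval 38.7 to 49.1%) and in RC04 alone at 187 members (51.0%, interval 45.7 to 56.2%). The remaining 19 members carried a call of both extracts, but these calls did not share a base. Of the 348 members called in exactly 1 extract, 53.7% had the call in RC04 (interval 48.3 to 59.1%). The same share was 56.7% over all 4808 H3K4me3 intervals called in a single extract, a value inside the interval of the members. Single-extract intervals made up 37.4% of the 12858 merged H3K4me3 intervals. Most of them lay away from CFP-1, since only 680 touched a CFP-1 region. Of these, 411 were at members and the other 269 at CFP-1 regions that also overlapped an H3K4me3 region elsewhere.

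The calls of the mark at members were weak. The score is the authors' peak caller's own value, the −log10 of a p or q, and a rank is its percentile within its list. At members called in RC03 alone the score had a median of 3.74 (quartiles 2.85 and 4.52) and ranged from 1.71 to 7.99. At members called in RC04 alone the median was 4.44 (quartiles 3.40 and 5.51) and the range 1.52 to 15.3. The corresponding median ranks were 22.8 and 29.9, so a typical call lay in the lower part of its own list. Single-extract calls away from any CFP-1 region had median scores of 3.29 in RC03 and 3.52 in RC04. Calls at members, taken call by call, had somewhat higher medians of 3.74 and 4.36, with quartile ranges that overlapped in both lists. Their median ranks were 22.8 in RC03 and 29.5 in RC04, against 16.7 and 19.1 for the calls away from CFP-1. Single-extract calls at CFP-1 regions that were no members had medians in between, 3.46 in RC03 (109 calls) and 3.99 in RC04 (160 calls). Their median ranks were 19.1 and 25.8. Their upper quartiles of score were 4.59 and 5.65, against 4.51 and 5.51 for calls at members. A somewhat higher score was thus not particular to members. These differences were not tested. H3K4me3 regions at the other CFP-1 regions had median scores of 41.8 in RC03 and 40.1 in RC04. Only 146 and 207 of those 5427 CFP-1 regions, or 2.69% and 3.81%, sat on an H3K4me3 region scored below the median member call of the same list. The scores of members and of reproducible regions met only below the lower quartile of the reproducible ones, which was 15.3 in RC03 and 15.4 in RC04.

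**Figure D1:**
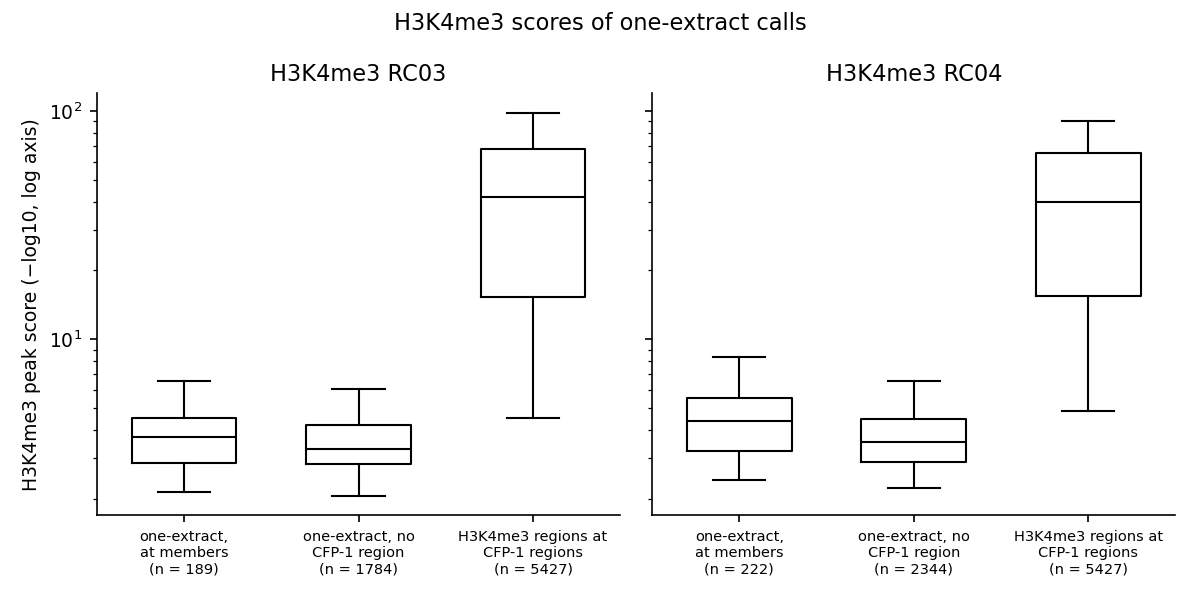
Score of H3K4me3 calls in RC03 (left) and RC04 (right), in −log10 units on a log axis, for single-extract calls at members, single-extract calls without a CFP-1 region, and H3K4me3 regions at the other CFP-1 regions. Boxes give quartiles with the median and whiskers the 5th and 95th percentiles. The member medians of 3.74 and 4.36 lie somewhat above the 3.29 and 3.52 of calls away from CFP-1 and far below 41.8 and 40.1. Single-extract calls at CFP-1 regions that were no members are not shown.

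The calls of the mark were short and often covered only part of the CFP-1 region. Their median width was 144 bp (quartiles 111 and 186 bp), against a median member width of 289 bp. A member had a median of 108 bp under its calls, or 36.2% of its length (quartiles 21.2 and 55.1%). Of the 412 pairs of member and call, 156 had the call wholly inside the CFP-1 region, 6 had the CFP-1 region wholly inside the call, and 250 overlapped in part. From midpoint to midpoint the median distance was 114.5 bp. Offsets of up to 25 bp were found for 57 pairs, or 1.14 pairs per bp counting both sides, and offsets over 100 and up to 125 bp for 68 pairs, or 1.36 per bp. Between these, the density was 0.60 pairs per bp over 25 and up to 50 bp, and 0.77 over 50 and up to 100 bp. Over 125 and up to 150 bp it was 1.08, and over 150 and up to 200 bp it was 0.70. Density was thus highest near the midpoint and over 100 and up to 150 bp from it, in bins of unequal width. The overlap rule and the differing widths of members also limit the offsets, and this pattern was not tested. Most members, 329, held a single call, 35 held 2 and 3 held more, up to 7 in 1 member.

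Failure to be a region was seldom a matter of a few bases. From the 411 calls at members, the nearest H3K4me3 peak of the other extract was a median of 1517 bp away. For 235 calls (57.2%) it was more than 1000 bp away, and for 56 calls it lay within 100 bp. At the 19 members with calls of both extracts, the gap between these calls had a median of 43 bp and ran from 0 bp, where the calls touched without sharing a base, to 325 bp. The 5 of these with the highest CFP-1 ranks lay on chromosome I (10407366 to 10407865 and 11989843 to 11990070), II (7838654 to 7838987) and V (10036274 to 10036562 and 11076271 to 11076786), all positions being 1-based in build ce10. Their H3K4me3 scores were 1.66 to 5.58 in either extract. At the one with the widest gap, 10407366 to 10407865 on I, the scores of the mark were 5.21 in RC03 and 4.48 in RC04, and the 2 calls, 325 bp apart, together covered 35.0% of the CFP-1 region.

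At the edge of the 1 bp rule, the smallest overlaps were 3 bp on II (4209123 to 4209459), 5 bp on II (12944631 to 12945122) and 5 bp on V (14322867 to 14323099). The member on II with 3 bp had CFP-1 scores of 29.5 in RC03 and 41.4 in RC04, and 27 members had under 10% of their length under a call. Of the CFP-1 regions with no H3K4me3 peak, those on IV (2048842 to 2049199) and X (4145072 to 4145293) touched one without sharing a base, and one on I (11090966 to 11091154) lay 1 bp from one. The peaks beside all 3 belonged to reproducible H3K4me3 regions, so a few further bases would have made these CFP-1 regions marked ones and not members. Just outside the rule for members, regions on III (3446245 to 3446691), IV (13491133 to 13491345) and V (12596850 to 12597172) lay 1 bp from a single-extract call. Their CFP-1 scores were 5.47 to 6.84 in RC03 and 3.43 to 10.7 in RC04.

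CFP-1 itself was called at members with low to middling scores. The median CFP-1 score of members was 9.89 in RC03 (quartiles 6.06 and 16.5) and 8.90 in RC04 (quartiles 5.47 and 14.8). CFP-1 regions on an H3K4me3 region had medians of 25.8 and 26.4, and CFP-1 regions with no H3K4me3 peak had 7.97 and 8.25. In both lists the members' median thus lay near that of the unmarked regions, whose quartiles overlapped broadly with theirs, and well under that of the marked ones. As a rank averaged over both lists, the median was 40.7 for members, 67.9 for CFP-1 regions on H3K4me3 and 36.4 for those with no H3K4me3 peak. Widths followed the same order, with medians of 289, 388 and 257 bp. These differences were not tested, because regions of 1 extract are not replicates. An exact permutation test over 2 lists per antibody could not pass any usual threshold.

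Members became rarer among strong CFP-1 regions. In the lowest decile by CFP-1 rank they made up 8.44% (interval 6.56 to 10.7%), in the fifth 6.99% (5.28 to 9.05%) and in the highest 0.528% (0.144 to 1.35%). CFP-1 regions on H3K4me3 numbered 330 in the lowest decile and 725 in the highest. Among CFP-1 regions off H3K4me3 regions, members made up 15.0% of the lowest decile (11.7 to 18.7%), 28.1% of the seventh (19.4 to 38.2%) and 12.1% of the highest (3.40 to 28.2%), where only 33 such regions were left. The interval of the seventh decile lay above that of the lowest, and the intervals of the lowest and the highest decile overlapped. A trend with CFP-1 rank was not tested.

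**Figure D2:**
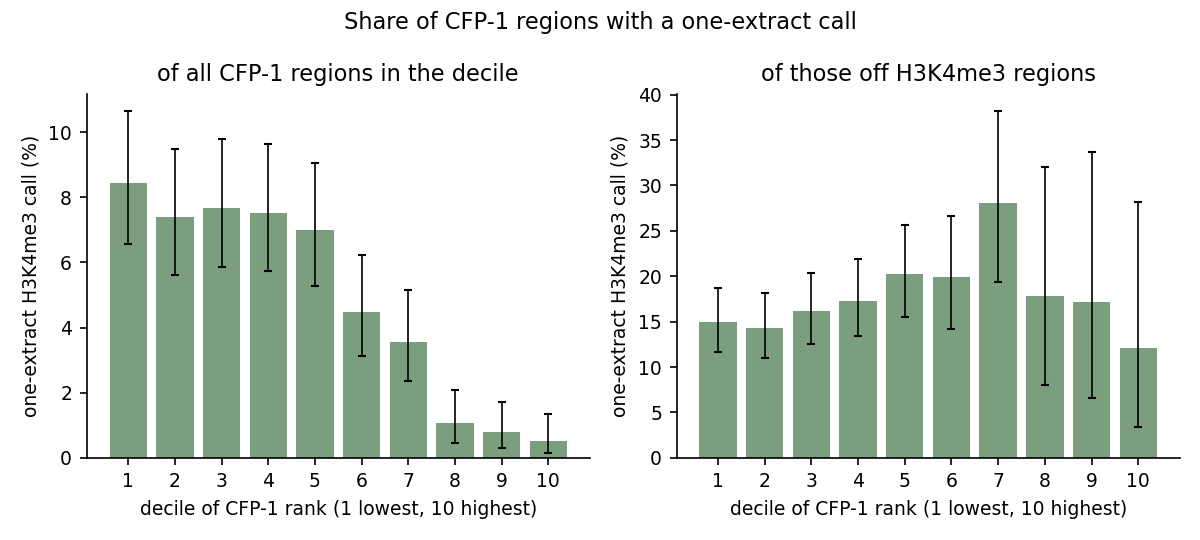
Percentage of CFP-1 regions with a single-extract H3K4me3 call in each decile of CFP-1 rank, of all CFP-1 regions (left) and of those off H3K4me3 regions (right), with exact binomial 95% intervals as bars. The left share runs from 8.44% in the lowest decile to 0.528% in the highest, while the right one stays between 12.1% and 28.1% with wide intervals.

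A few members nonetheless carried CFP-1 among the strongest of its lists. The highest was on V (4063559 to 4063972), where CFP-1 scored 167 in RC03 and 162 in RC04, at ranks of 98.9 and 97.8. Its H3K4me3 call, in RC03, had a score of 2.57. The next, on II (3523555 to 3524035), had CFP-1 scores of 147 and 150 and an H3K4me3 score of 3.22 in RC04. A member on III (3695402 to 3695791) had CFP-1 scores of 135 and 136 and an H3K4me3 score of 3.66 in RC04. At these 3 the nearest H3K4me3 region lay 1395 to 2088 bp away. A member on II (12944631 to 12945122), with CFP-1 scores of 110 and 115, met its H3K4me3 call of 2.57 in RC04 by only 5 bp, and its nearest H3K4me3 region was 25366 bp away. The fifth, on V (15590203 to 15590511), scored 79.0 and 99.0 for CFP-1, with an H3K4me3 score of 2.81 in RC04. All 5 thus joined a CFP-1 peak that both extracts ranked high to a mark call in the lower part of its list, at ranks of 4.45 to 21.9. At the other end, the weakest CFP-1 calls were on II, at 3937888 to 3938215 with scores of 1.47 and 1.97 and at 10545665 to 10546026 with 2.57 and 1.93.

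The CFP-1 scores of the 2 extracts were less alike at members than at marked regions. Across the 367 members the Spearman rho between RC03 and RC04 scores was 0.66. It was 0.95 across CFP-1 regions on H3K4me3 and 0.69 across those with no H3K4me3 peak. The points share 2 libraries and span different ranges of score, so these values describe the sets and are not compared by a test.

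**Figure D3:**
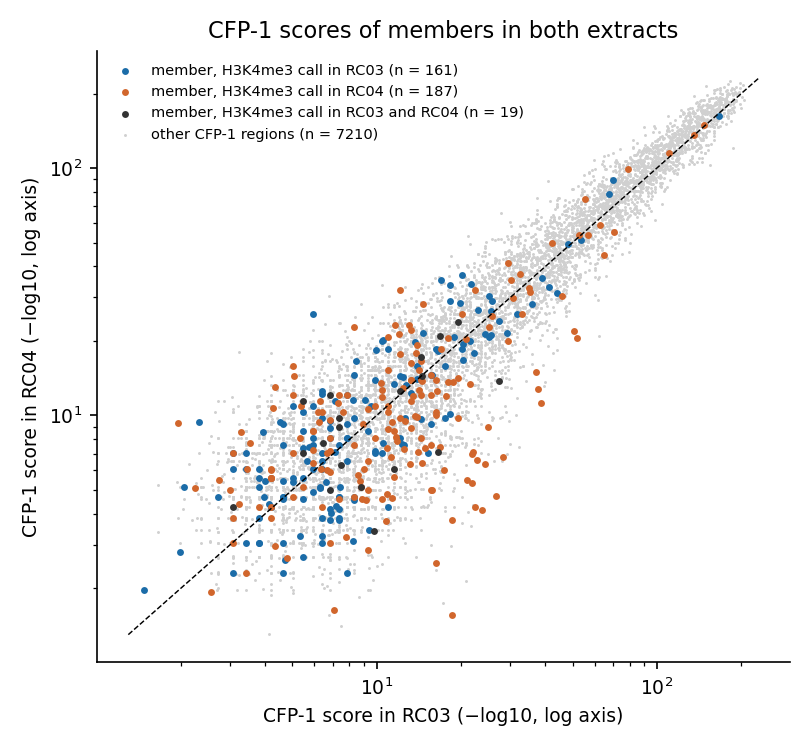
CFP-1 score in RC03 (x) and RC04 (y), in −log10 units on log axes, for each CFP-1 region, with members coloured by the extract of their H3K4me3 call and all other CFP-1 regions in grey. The dashed line marks equal scores; a group of members called in RC04 lies below it, among them the 10 at chromosome ends, with CFP-1 scores of 16.3 to 51.9 in RC03 and 5.49 to 21.9 in RC04.

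Members whose mark was called in RC04 ranked higher for CFP-1 in RC03 more often than in RC04. These 187 members had a median CFP-1 rank of 49.4 in RC03 and 42.7 in RC04, and 109 of them (58.3%, interval 50.9 to 65.4%) ranked higher in RC03. At the 161 members called in RC03 the median CFP-1 ranks were 35.8 in RC03 and 38.1 in RC04, and 71 (44.1%, interval 36.3 to 52.1%) ranked higher in RC03. Over all CFP-1 regions this share was 48.9%. It lay outside the interval of the members called in RC04 and inside that of the members called in RC03. These intervals treat regions from the same libraries as independent, so they are no test of a difference between the extracts. CFP-1 regions with no H3K4me3 peak in either list ranked higher in RC03 in 43.9% of cases, close to the members called in RC03. The median of CFP-1 rank in RC03 minus that in RC04 was 1.76 points at the members called in RC04 and -1.93 at those called in RC03, and it was -1.73 at the regions with no H3K4me3 peak. These medians are small beside the spread of single members, which reached 61.2 points. Without the 10 members at chromosome ends, all called in RC04, 99 of 177 members called there ranked higher for CFP-1 in RC03 (55.9%, interval 48.3 to 63.4%), and that interval included 48.9%.

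The RC04 calls were also described by their H3K4me3 rank. In the 45 members of the highest group, about 25% of these calls with tied ranks kept together and ranks of 44.2 to 69.7, CFP-1 had a median rank of 57.1 in RC03 and 34.2 in RC04, and 32 of 45 (71.1%, interval 55.7 to 83.6%) ranked higher in RC03. Of the other members called in RC04, 77 of 142 did (54.2%, interval 45.7 to 62.6%), with medians of 47.9 in RC03 and 44.4 in RC04, and the intervals of both shares overlapped. Away from the chromosome ends the highest group had 25 of 38 (65.8%, interval 48.6 to 80.4%), an interval that included 48.9%. The members called in RC03, split into 4 such groups by H3K4me3 rank, had between 14 of 35 and 21 of 41 with the higher CFP-1 rank in RC03. A rank more than 40 points higher in RC03 was found at 8 of 367 members, against 55 of all 7577 CFP-1 regions (0.726%). All 8 had their H3K4me3 call in RC04 alone. A rank more than 40 points higher in RC04 was found at 3 of 367 members, against 24 of 7577 CFP-1 regions (0.317%). Of these 3, 2 had the H3K4me3 call in RC03 alone and 1 in RC04 alone. Among the 1783 CFP-1 regions with no H3K4me3 peak, 10 had such a difference toward RC03 and 10 toward RC04. Differences this large toward RC03 were thus more frequent at members than over all CFP-1 regions. Toward RC04, 3 members are too few to compare. Neither direction was tested. Outside the members, at 43 CFP-1 regions on an H3K4me3 region whose mark ranked over 40 points higher in RC04, CFP-1 had a median rank of 59.1 in RC03 and 37.0 in RC04. At the 369 where the mark ranked 10 to 40 points higher in RC04 the medians were 51.3 in RC03 and 49.0 in RC04, and 199 (53.9%, interval 48.7 to 59.1%) ranked higher in RC03. At the 4775 with the mark within 10 points in both lists the medians were 71.2 in RC03 and 71.3 in RC04. At the 229 with the mark 10 to 40 points higher in RC03 the medians were 49.2 in RC03 and 48.1 in RC04. Of these, 116 (50.7%, interval 44.0 to 57.3%) ranked higher in RC03. At the 11 with the mark over 40 points higher in RC03 the medians were 54.9 in RC03 and 51.3 in RC04. There 8 of 11 (72.7%, interval 39.0 to 94.0%) ranked higher in RC03.

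**Figure D4:**
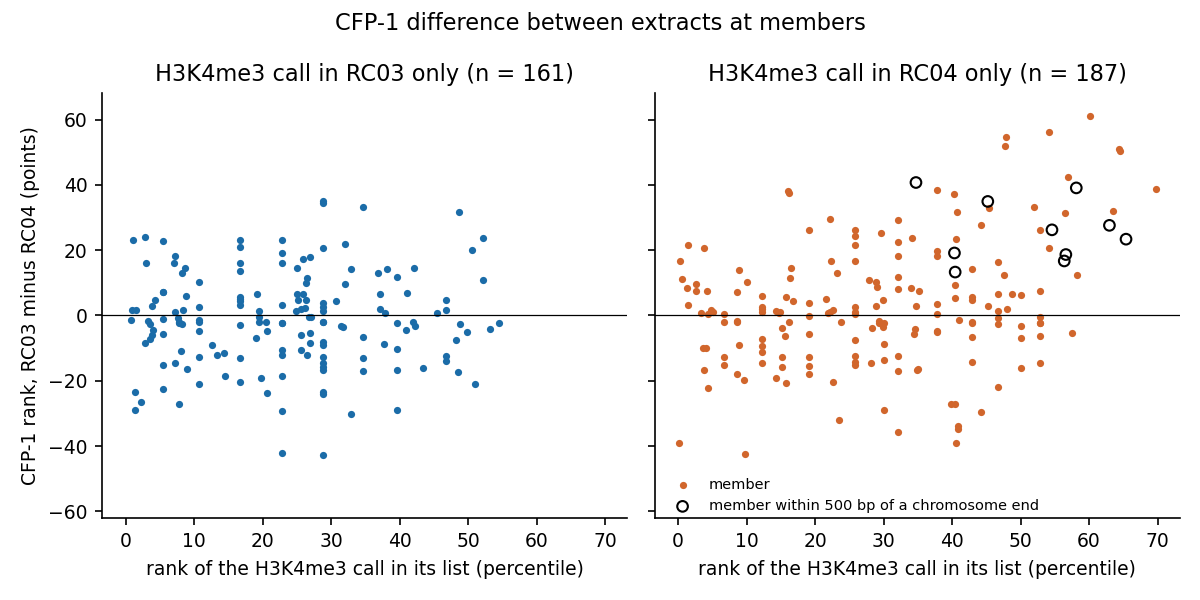
Rank of the H3K4me3 call within its list (x, percentile) and CFP-1 rank in RC03 minus that in RC04 (y, points) for members called in RC03 only (left) and RC04 only (right); open circles are members within 500 bp of a chromosome end. From an H3K4me3 rank of 44.2 upward the right panel has 32 of 45 members above 0, and all 10 open circles lie above 0.

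The members with the strongest calls of the mark were of this kind. The highest H3K4me3 score, 15.3 in RC04, was on III (1301226 to 1303070), where CFP-1 scored 24.4 in RC03 and 6.39 in RC04. It is also the second widest member, at 1845 bp, with 80.3% of its length under calls. Next came a member at the right end of III (13783429 to 13783700), with an H3K4me3 score of 11.8 in RC04 and CFP-1 scores of 37.6 in RC03 and 12.8 in RC04. A member in the middle of III (7594657 to 7595091) had an H3K4me3 score of 11.4 and CFP-1 scores of 26.6 and 4.74. One on X (11786440 to 11787869), with a width of 1430 bp, had an H3K4me3 score of 11.1 and CFP-1 scores of 22.5 and 4.26. The fifth, on I (10950467 to 10951014), had an H3K4me3 score of 10.8 and CFP-1 scores of 7.07 and 1.64. In all 5 the mark was called in RC04 alone and the CFP-1 score was higher in RC03. The widest member, 3256 bp on III (1017353 to 1020608), had CFP-1 scores of 21.9 in RC03 and 5.33 in RC04 and an H3K4me3 score of 8.34 in RC04. These were the only 3 members wider than 1000 bp, counting those on III at 1017353 and 1301226 and the one on X.

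Most chromosome ends were members. Of the 12 CFP-1 regions within 500 bp of an end, which are 0.158% of all CFP-1 regions, 10 were members and the other 2 lay on H3K4me3 regions. These 10 make up 2.72% of the members. The left ends of I, II, III, IV and X were among them, each starting at the first base of its chromosome. At I (1 to 469), CFP-1 scored 51.9 in RC03 and 20.6 in RC04, and H3K4me3 was called at 8.23 in RC04. At X (1 to 323) the CFP-1 scores were 50.4 and 21.9 and the H3K4me3 score was 8.08. At II (1 to 434) they were 36.9 and 14.9, with an H3K4me3 score of 5.22, and at IV (1 to 224) they were 22.9 and 6.62, with 5.92. At III (1 to 211) the CFP-1 scores were 16.3 and 10.0, with an H3K4me3 score of 5.23. The right ends of II, III, IV, V and X were the other 5, with CFP-1 scores of 21.0 to 38.6 in RC03 and H3K4me3 scores of 4.65 to 11.8 in RC04. All 10 had their call of the mark in RC04 and the higher CFP-1 score in RC03, with medians of 32.7 in RC03 and 10.6 in RC04.

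The remaining ends, which were no members, had the same order of scores. At the left end of V (1 to 317) CFP-1 scored 39.3 in RC03 and 16.1 in RC04, while the mark scored 2.03 in RC03 and 7.47 in RC04. At the right end of I (15071737 to 15072423), where CFP-1 scored 42.6 and 17.8, the mark scored 10.97 and 28.3. The right end was taken as the last base under a peak of any list and was not checked against the length of the chromosome, so the presence of a peak there follows in part from the definition. The handling of reads from telomeric and other repeats is not given here, and its part in these scores was not tested.

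Many of the weak calls shared an identical score with other peaks of the list. Of the members called in RC04, 98 (52.4%) had an H3K4me3 score that at least 20 peaks of that list shared, against 47.8% of the list as a whole, and 49 of these 98 ranked higher for CFP-1 in RC03. Of the 89 whose score was not so repeated, 60 did (67.4%, interval 56.7 to 77.0%). The interval of the 98 was 39.7 to 60.3%, so both intervals overlapped. Members at chromosome ends were not set apart in this split. All 8 members with a CFP-1 rank over 40 points higher in RC03 were among the 89. Of the members called in RC03, 105 (65.2%) had a repeated score, against 46.3% of that list as a whole. Among these 105, 45 (42.9%) ranked higher for CFP-1 in RC03, against 26 of the other 56 (46.4%). The difference between repeated and other scores was not tested.

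Members lay nearer to reproducible H3K4me3 than unmarked CFP-1 regions did. The nearest H3K4me3 region was a median of 2623 bp away from members (quartiles 696 and 7667 bp) and 5208 bp from CFP-1 regions with no H3K4me3 peak (quartiles 1675 and 12046 bp). The members' median was 244.5 bp where an overlap of 50% of the shorter interval was required and 4331 bp with H3K4me3 peaks merged across gaps of up to 500 bp. Within 500 bp of one lay 81 members (22.1%, interval 17.9 to 26.7%) and 198 of the 1783 unmarked regions (11.1%, interval 9.68 to 12.7%), where all CFP-1 regions off H3K4me3 regions gave 13.0%. Over 10000 bp away were 70 members (19.1%, interval 15.2 to 23.5%) and 552 unmarked regions (31.0%, interval 28.8 to 33.2%). The intervals did not overlap in either class, though they treat regions as independent. Being near an H3K4me3 peak of 1 extract is what chose the members, and peaks of the mark can lie in groups, so the distance is not independent of the rule.

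The 81 members beside an H3K4me3 region had more of their length under calls than the more isolated ones. Their median was 50.6%, against 35.0% at members more than 500 and up to 2000 bp away. It was 31.6% at those more than 2000 and up to 10000 bp away and 32.9% at those beyond. The median CFP-1 rank was 34.5 in the near group and, with growing distance, 38.0, 41.4 and 46.3 in the others. The H3K4me3 rank of the call was 25.95 in the near group, 25.8 in both middle groups and 30.8 in the farthest. Of the 8 members with a CFP-1 rank over 40 points higher in RC03, 1 was in the near group, which held 81 of the 367 members. Another 3 were among the 135 members more than 2000 and up to 10000 bp away, and 4 among the 70 beyond. These counts are too small to set isolated members apart.

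**Figure D5:**
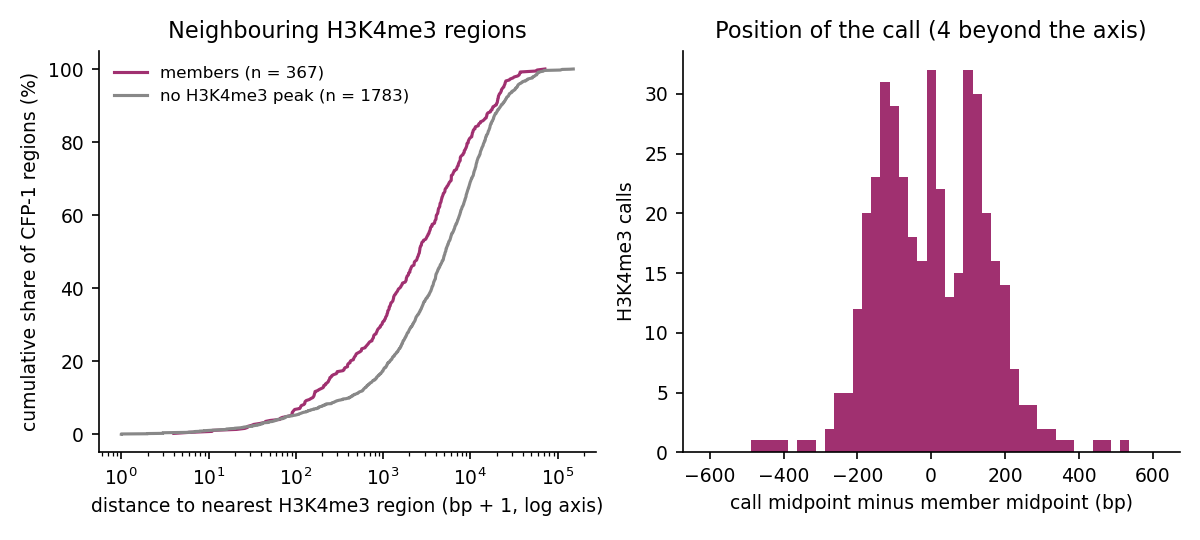
Left, cumulative percentage of members and of CFP-1 regions with no H3K4me3 peak against the distance to the nearest H3K4me3 region (bp plus 1, log axis); right, number of H3K4me3 calls by the distance in bp of their midpoint from the midpoint of the member. The member curve passes 50% at 2623 bp and the other at 5208 bp; the offsets gather near 0 and on either side of it, and 4 calls lie beyond the axis.

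Members were spread over all chromosomes. They numbered 77 on I, 63 on II, 58 on III, 59 on IV, 61 on V and 49 on X. As a share of the CFP-1 regions of the chromosome this ran from 4.03% on X (interval 2.99 to 5.29%) to 5.53% on V (4.26 to 7.05%), and all 6 intervals overlapped. X held 13.4% of members (interval 10.0 to 17.3%), 15.4% of CFP-1 regions on H3K4me3 and 18.7% of those with no H3K4me3 peak, where all CFP-1 regions gave 16.1%. The extract of the call was also mixed on every chromosome, with 36 and 36 members called in RC03 and in RC04 on I, 32 and 26 on V, and 22 and 35 on III. Members were scattered singly, the nearest other member being a median of 76227 bp away, and 26 had another within 2000 bp.

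On the autosomes, members lay in centres and arms in nearly the proportion of the unmarked regions. The central 33.3% of each autosome held 29.2% of members (93 of 318, interval 24.3 to 34.6%), 40.5% of CFP-1 regions on H3K4me3 (interval 39.1 to 42.0%) and 29.0% of those with no H3K4me3 peak (interval 26.6 to 31.4%). As a ratio of densities, centre over outer parts, these were 0.83 (interval 0.64 to 1.06), 1.36 (1.29 to 1.45) and 0.82 (0.73 to 0.91). The interval of members included 1 and did not overlap that of marked regions. Single autosomes ran from 0.62 on IV, with 14 of 59 members in the centre, to 1.22 on III, with 22 of 58, so the ratio was not below 1 on all of them. Where an overlap of 50% of the shorter interval was required, the ratio was 1.02, and it was 1.04 for the RC03 list of CFP-1 alone.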

How the data were processed

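ChIP-seq peak lists of 4 samples were used, 1 per sample and not pooled. The authors aligned reads with BWA to build ce10 and called peaks with MACS2 2.0.10, per the submitters' processing notes; their settings, control and threshold are not stated. Scores were deposited by the authors as −log10 of p or q, without saying which. They rise with depth and width and were ranked only within a list. Peak names carry a larval stage, whereas all labels give late embryos, and the labels were followed. Read depth is unknown.

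Peaks of RC03 and RC04 sharing at least 1 bp were merged, and intervals with peaks of both lists were kept as regions. The highest peak gave a region's score and rank. Shares carry exact binomial (Clopper-Pearson) 95% intervals, which cover counting error only. No test over regions was made. The class and overlap code was tested on simulated data. From regions merged by the same code, bedtools 2.31.1 gave the same 367 members by overlap. The merging itself was not checked with other software. The members, comparisons and lists were chosen with earlier results of these data known.

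Regions named are the 5 members with the highest CFP-1 rank, the 5 with the highest H3K4me3 rank, the 5 highest by CFP-1 rank among those with calls of both extracts, the 3 widest, the 2 lowest by CFP-1 rank, and the 3 members with the smallest overlap and 3 unmarked regions nearest to an H3K4me3 peak. The regions at chromosome ends, the grouping of calls by rank, the limit of 40 points, the repeated scores and the 3 regions nearest to single-extract calls were chosen after their values were seen. Alternatives were another overlap, a stricter score, a gap in merging, each CFP-1 list left out, a replicate block and a wider centre. Sequence, CpG density, transcript starts and genes need build ce10 and were not analysed here. The software was Python 3.11.15 with scipy 1.17.1, pandas 2.3.3, numpy 2.4.6 and, for figures, matplotlib 3.10.9.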

Additional observations from a re-analysis of the deposited data

How the results depend on the processing

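Of 56 values under alternative settings, 41 moved by less than a spread or their counting interval, or for counts stayed within 1.5 times. For the CFP-1 rank the spread was that of the same members between both lists. For the call's rank, the covered share and the distance it was between members called in RC03 alone and in RC04 alone. Those are different regions, so that spread does not measure replication. The values that moved by more were as follows. With H3K4me3 peaks merged across gaps of up to 500 bp, 249 regions met the rule (3.29% of CFP-1 regions), at a median CFP-1 rank of 43.4, with 32.3% of their length under calls and 4331 bp from the nearest H3K4me3 region. With an overlap of at least 50% of the shorter interval there were 446 (5.89%), at a median rank of 47.3, and 244.5 bp from an H3K4me3 region, since regions touched by less than 50% then no longer count as overlapped. With 1 CFP-1 list left out, members numbered 466 to 486, with median CFP-1 ranks of 33.5 to 33.6, 40.6 to 42.0% of their length under calls and a median distance of 1953 bp; by construction this brings in weaker CFP-1 peaks of a single list. Leaving out an H3K4me3 list gives no value, because a single-extract call then cannot be told from a region. The labels do not say that a number marks the same chromatin. As a replicate block, with CFP-1 taken from the list of the number of the call, the median CFP-1 rank was 38.6, against 40.7 without it. The differences between extracts of both antibodies had a Pearson r of -0.10 and a Spearman rho of -0.05 across 5427 CFP-1 regions on H3K4me3, and with the crossed pairing, added after seeing the data, the median rank was 45.5. The shares of members with the higher CFP-1 rank in RC03 stayed at 55.6 to 60.5% for RC04 calls and 43.9 to 48.1% for RC03 calls under the 4 alternatives added later. Read depth is unknown, so a missing call is not the absence of the mark.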
